A study of Mus musculus with 8 samples.

Results

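A set of 10 immediate early genes outside the AP-1 family were followed in mouse leukaemia cells after deletion of Cdc73: Egr1, Egr2, Egr3, Ier2, Ier3, Ier5, Zfp36, Nr4a1, Klf2 and Klf6. They were taken by symbol from the authors' table of 23361 genes, and all 10 were found there, each under a locus entry of its own. Compared were a Cdc73fl/fl CreERT2 line after 24 or 48 h of 7.5 nM 4-hydroxytamoxifen (4OHT), and a Cdc73 +/+ CreERT2 line at the same times and dose. Both were established acute myeloid leukaemia lines from bone marrow of strain 129S6, transformed with the fusion oncogene MLL-AF9, and every culture contained serum and interleukin 3. In both lines 4OHT activates the recombinase CreERT2, which removes Cdc73, a subunit of the PAF1 complex of elongating RNA polymerase II, from the floxed line only. Poly(A) RNA of 8 libraries was sequenced, 2 biological duplicates for each line and time. Genotype and line cannot be told apart, because each genotype is 1 line and no library from before 4OHT was analysed here. The sources used here do not state whether a line is a single clone.

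Immediate early genes are switched on within minutes of a growth factor, cytokine or stress signal, without new protein synthesis, and their mRNAs are short-lived. Signals through the ERK kinases and calcium or cyclic AMP reach them through the serum response factor SRF with its ETS-family partners and through CREB. Their products are mostly transcription factors, together with RNA-binding proteins and regulators of signalling, and in myeloid cells several of them are known from monocyte and macrophage maturation.

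Immediate early genes are often controlled through SRF, CREB and EGR sites in the promoter and AU-rich elements in the 3′ end, and the sequences printed here show which of these motifs the members held. RefSeq promoter windows (build GRCm38.p6, 250 bases before to 50 after the start site, 5′ to 3′) were found for 7 of the 10 genes. None was found for Egr1, Egr3 or Ier2, so their promoters were not searched for motifs. Shown are Zfp36 and Egr2, which hold a CArG box (the SRF site), Nr4a1, which holds the most CREB-type motifs, and Ier5, which had the largest fold among members above 1 FPKM in both lines. Capitals mark matches to the motifs searched on both strands.
Zfp36 promoter, chr7:28379179-28379478, minus strand: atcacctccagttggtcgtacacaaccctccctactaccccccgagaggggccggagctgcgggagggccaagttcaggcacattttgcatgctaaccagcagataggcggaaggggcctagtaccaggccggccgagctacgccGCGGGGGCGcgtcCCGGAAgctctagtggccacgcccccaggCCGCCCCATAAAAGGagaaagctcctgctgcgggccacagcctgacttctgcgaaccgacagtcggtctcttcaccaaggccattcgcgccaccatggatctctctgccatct
Egr2 promoter, chr10:67537619-67537918, plus strand: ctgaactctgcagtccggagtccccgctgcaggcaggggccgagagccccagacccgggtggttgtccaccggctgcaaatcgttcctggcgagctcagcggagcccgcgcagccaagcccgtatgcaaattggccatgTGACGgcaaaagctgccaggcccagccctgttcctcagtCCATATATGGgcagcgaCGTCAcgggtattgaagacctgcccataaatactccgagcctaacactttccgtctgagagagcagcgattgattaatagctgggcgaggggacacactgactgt
Nr4a1 promoter, chr15:101266596-101266895, plus strand: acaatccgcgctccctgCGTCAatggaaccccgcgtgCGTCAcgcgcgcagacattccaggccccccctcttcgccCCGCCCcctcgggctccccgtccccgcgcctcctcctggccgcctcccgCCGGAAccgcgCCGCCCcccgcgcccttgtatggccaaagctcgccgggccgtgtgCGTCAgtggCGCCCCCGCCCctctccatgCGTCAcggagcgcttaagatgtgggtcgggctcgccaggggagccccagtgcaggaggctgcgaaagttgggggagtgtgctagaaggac
Ier5 promoter, chr1:155099587-155099886, minus strand: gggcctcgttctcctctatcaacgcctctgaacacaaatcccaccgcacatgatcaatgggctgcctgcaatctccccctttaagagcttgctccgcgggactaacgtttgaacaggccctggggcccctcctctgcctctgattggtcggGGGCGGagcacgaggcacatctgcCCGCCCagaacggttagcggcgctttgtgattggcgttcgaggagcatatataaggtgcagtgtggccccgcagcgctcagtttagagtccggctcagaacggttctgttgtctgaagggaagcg
The CArG box was present in 2 of the 7 member windows and in 1.51% of 16328 gene promoters of the same length. In Zfp36 it lay at -58 to -49 from the start site, sharing a base with a GC box, and followed an ETS motif at -92 and an EGR motif at -105. In Egr2 it lay at -72 to -63 between CRE cores at -111 and -55. Nr4a1 held 4 CRE cores, at -233, -213, -69 and -40. The CRE core (TGACG) was found in 3 of 7 windows against 24.5% of all promoters, the ETS motif (CCGGAA) in 2 against 19.5%, and the EGR motif (GCGNGGGCG) in 3 against 7.74%. The GC box (GGGCGG), which can overlap the EGR motif, was found in 6 of 7 windows against 47.9% of promoters. The full CRE (TGACGTCA), which contains the CRE core, and the exact TATA box hexamer TATAAA were found in none of the 7, against 2.37% and 12.9%. Other forms of the TATA box, such as tatataag in the Ier5 window, were not searched, so their absence cannot be read from this. The Zfp36, Egr2 and Nr4a1 windows belong to RefSeq starts well inside the GENCODE gene, and their motif positions count from those starts. These matches describe letters in the windows and say nothing of binding.

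The 3′ untranslated regions (UTRs) held the AU-rich heptamer TATTTAT, the core of the site bound by the Zfp36 protein, in 4 of the 10 genes. The heptamer is in capitals in the DNA letters of the transcript (GENCODE M21, mm10), and these windows are shown because Zfp36 is itself a member and Ier3 is a reported target of it.
Ier3 3′ UTR, chr17:35822483-35822507, plus strand: tctaattaaTATTTATgtatttatg
Zfp36 3′ UTR, chr7:28376953-28376977, minus strand: tgacgacttTATTTATtgtattaag
Klf2 3′ UTR, chr8:72320990-72321014, plus strand: acagactgcTATTTATtggacctta
Klf6 3′ UTR, chr13:5868945-5868969, plus strand: caccggctgTATTTATtatgtaaca
Ier3 had 4 such heptamers within 613 bases, the second of them in lower case at the end of the window shown, and Zfp36 had 3 within 774 bases. Klf6 had 2 and Klf2 had 1. The shorter AU-rich pentamer ATTTA occurred in 9 of the 10 genes and was absent from Ier2. Over 9866 expressed genes with an annotated 3′ UTR, 28.0% held the heptamer and 66.9% the pentamer, so the member shares of 4 and 9 in 10 are given as description only.

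**Figure D1:**
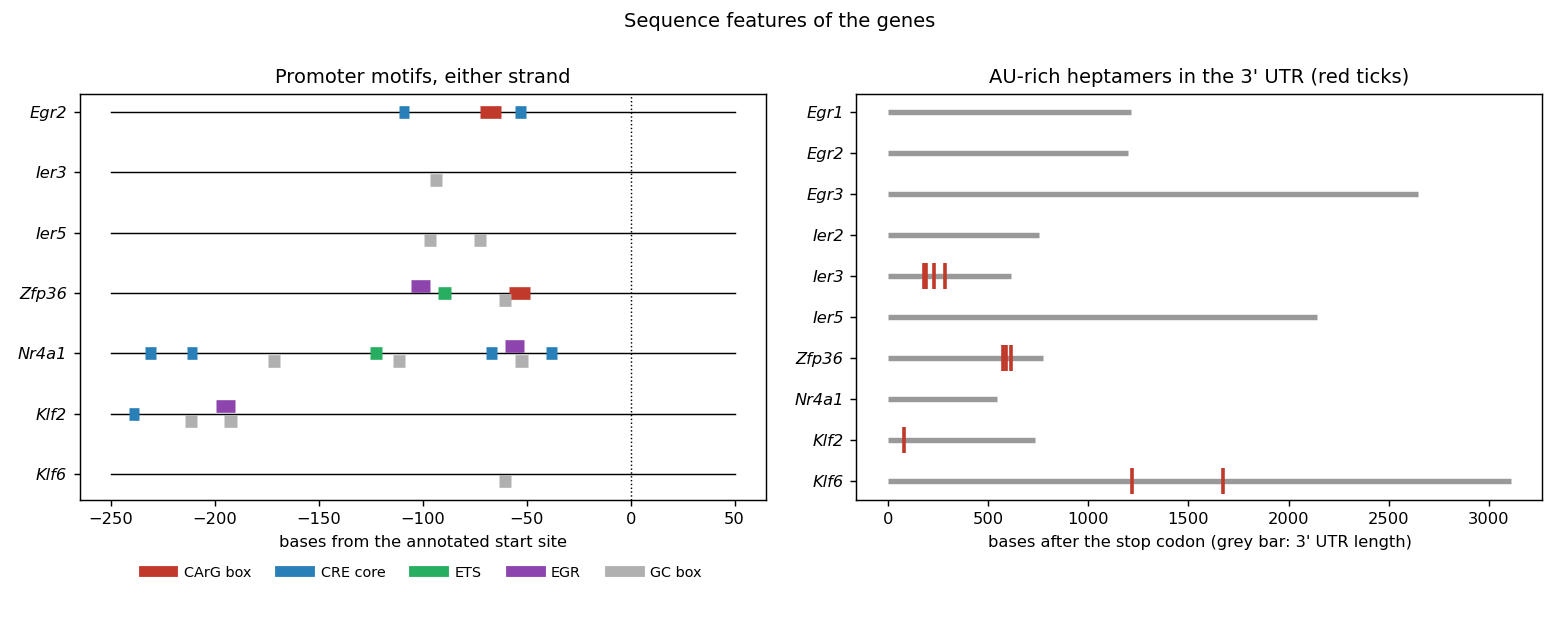
Left, motif matches in the 7 promoter windows by distance from the annotated start site in bases, with CArG boxes, among these 7, in Zfp36 and Egr2 only. Right, TATTTAT heptamers (red ticks) along the 3′ UTR of all 10 genes (grey bars, length in bases), present in Ier3, Zfp36, Klf2 and Klf6. Promoters of Egr1, Egr3 and Ier2 were not searched.

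Levels are the authors' FPKM (fragments scaled by transcript length and sequencing depth), with the duplicates of a group combined into 1 value per gene. No SD, n or interval can therefore be attached to a level, and a call means a q under 0.05 in the authors' deposited table for floxed against wild type cells. Total reads per library are not given. Cdc73 itself stood at 5.96 FPKM in floxed and 26.2 in wild type cells at 24 h, and at 5.45 and 26.9 FPKM in floxed and wild type cells at 48 h, called lower at both times. Cdc73 shares its locus entry with another gene in the table, so its residual level in floxed cells is uncertain. Markers of the myeloid leukaemia line were present, with Mpo, which encodes myeloperoxidase, between 1011 and 1986 FPKM in the 4 groups. The T cell, B cell, NK cell, erythroid and stromal marker lists reached at most 0.555 FPKM for any gene, and Cd3e, Pax5, Ncr1 and Hbb-b1 were listed at 0 in all groups. In bulk RNA a change in the number of cells that express a gene and a change in RNA per cell cannot be told apart.

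Most of the 10 genes were called higher in floxed cells at 24 h, and all but Egr3 at 48 h. At 24 h 8 of the 10 were called higher and 0 lower, where 13.7% of 11908 tested genes were called higher, 14.4% lower and 28.1% in either direction. At 48 h 9 of the 10 were called higher and 0 lower, where 26.8% of 12173 tested genes were called higher, 29.4% lower and 56.2% in either direction. Egr3 counted as not tested at both times, whereas the shares of all genes are over tested genes. The median log2 change over all 10, on the log2(FPKM + 1) scale, was 0.82 at 24 h and 1.67 at 48 h, and the median over all 11158 genes of at least 1 FPKM in some group was -0.01 and -0.06. Summed over the 10 genes, the level was 168 FPKM in floxed and 81.5 in wild type cells at 24 h, and 328 and 75.3 FPKM in floxed and wild type cells at 48 h. At 24 h the 8 called genes all had q = 0.000449 in the authors' deposited table, its smallest value, which 1327 genes shared. At 48 h all of the 9 but Egr2 had the smallest value of the authors' deposited table, q = 0.000165, shared by 3678 genes.

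A level of 1 FPKM was reached in some group by 8 of the 10, and Egr1 and Nr4a1 reached it in floxed cells only. Egr2 and Egr3 never did. Among the 8, the calls were 7 higher at 24 h and 8 higher at 48 h, with 0 lower at both. Of the expressed genes tested, 13.4% of 10987 were called higher and 14.2% lower at 24 h, and 25.7% of 11039 higher and 31.0% lower at 48 h. Since a gene that passes only through the group in which it is high has to differ, these counts are not evidence on the set.

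**Figure D2:**
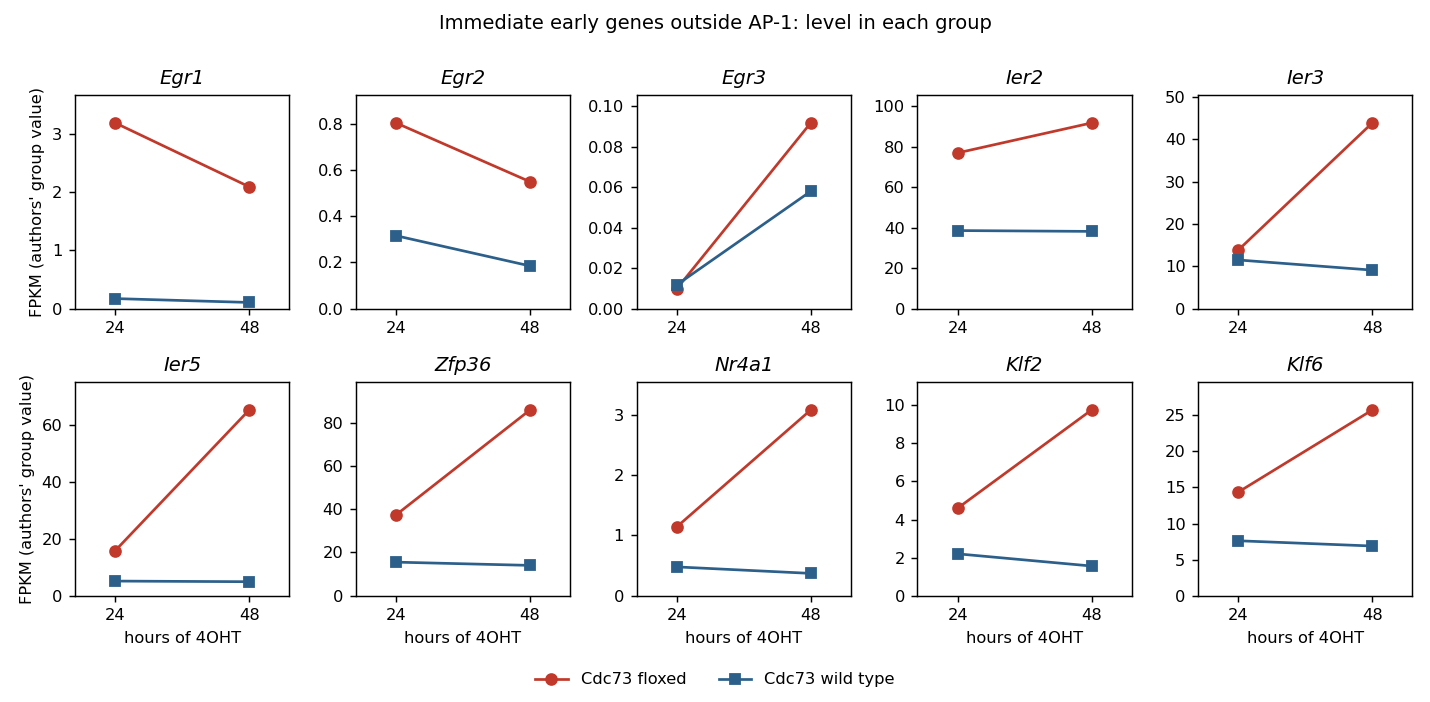
FPKM (vertical axis, from 0, scaled per gene) of each of the 10 genes in floxed cells (red circles) and wild type cells (blue squares) at 24 and 48 h of 4OHT, 1 authors' value per point with no error available. Floxed lies above wild type for every gene at both times except Egr3 at 24 h, and only Egr1 and Egr2 were lower at 48 h than at 24 h in floxed cells.

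The EGR genes encode zinc finger transcription factors that bind GC-rich sites, and Egr1 and Egr2 are known for roles in macrophage differentiation. Egr1, on chromosome 18 from 34859823 to 34864984, stood at 3.19 FPKM in floxed and 0.172 in wild type cells at 24 h. At 48 h it stood at 2.09 FPKM in floxed and 0.106 in wild type cells. It had the largest ratio of the 10 at both times, 18.5 and 19.7, but its wild type level was far under 1 FPKM, so the ratio rests on a small denominator and the log2(FPKM + 1) changes were 1.84 and 1.48. A larger change on that scale was found for 80 of the 10987 expressed tested genes at 24 h, and for 493 of 11039 at 48 h. Egr1 counts as expressed only through its floxed level, so it had to differ and this place is description only.

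Egr2, on chromosome 10 from 67535475 to 67542188, was low in every group but was called higher at both times. Its level was 0.803 FPKM in floxed and 0.315 in wild type cells at 24 h, and 0.549 and 0.185 FPKM in floxed and wild type cells at 48 h. The authors' deposited table gives q = 0.000449 at 24 h and q = 0.000595 at 48 h for it. Egr3, on chromosome 14 from 70077203 to 70082614, was close to the detection limit, at 0.00984 FPKM in floxed and 0.0118 in wild type cells at 24 h. That ratio of 0.836 lies within 0.002 of the most common ratio, 0.834, among 1272 genes under 0.05 FPKM in both groups, which would put Egr3 at a single fragment in each if that ratio comes from single fragments, an assumption that was not tested. At 48 h it stood at 0.0918 FPKM in floxed and 0.0580 in wild type cells, with q = 1 in the authors' deposited table at both times, so a difference in Egr3 was not detectable at this depth. Egr4, the remaining member of the family, was listed at 0 in 3 groups and at 0.00798 FPKM in floxed cells at 48 h.

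Of the IER genes, Ier2 and Ier5 were called higher at both times and Ier3 at 48 h. Ier2, which encodes a nuclear regulator of transcription, was the highest of the 10 in every group. It stood at 76.8 FPKM in floxed and 38.5 in wild type cells at 24 h, and at 91.6 and 38.1 FPKM in floxed and wild type cells at 48 h, ratios of 1.99 and 2.40. The gene is a single exon on chromosome 8 from 84661331 to 84662852.

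Ier5, whose human counterpart binds the phosphatase PP2A and the heat shock factor HSF1, had the largest 48 h ratio among members above 1 FPKM in both lines. It stood at 15.8 FPKM in floxed and 5.14 in wild type cells at 24 h, and at 65.3 and 4.92 FPKM in floxed and wild type cells at 48 h, ratios of 3.09 and 13.3. Its log2 change at 48 h was 3.49, and 46 of 11039 expressed tested genes had a larger one. Ier5 is a single-exon gene on chromosome 1 from 155096361 to 155099636, the chromosome that also carries Cdc73, which ends 11.4 Mb before it.

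Ier3, a regulator of apoptosis and ERK signalling, had no call at 24 h and was called higher at 48 h. Its level was 13.9 FPKM in floxed and 11.5 in wild type cells at 24 h, with q = 0.227 in the authors' deposited table. At 48 h it was 43.9 FPKM in floxed and 9.10 in wild type cells, a ratio of 4.82. It lies on chromosome 17 from 35821684 to 35822923. The table gives no test of whether its difference changed between the times.

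Zfp36 encodes tristetraprolin, which binds AU-rich elements and speeds the decay of the mRNAs that carry them, its own included. Its level was 37.4 FPKM in floxed and 15.5 in wild type cells at 24 h, and 85.9 and 14.02 FPKM in floxed and wild type cells at 48 h. The ratios were 2.41 and 6.13. The gene lies on chromosome 7 from 28376784 to 28380253 and was the second highest of the 10 in all 4 groups. At 48 h 108 of 11039 expressed tested genes had a larger log2 change than its 2.53.

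Nr4a1 encodes the orphan nuclear receptor Nur77, needed in mice for the patrolling type of monocyte. It was low, at 1.14 FPKM in floxed and 0.477 in wild type cells at 24 h, and at 3.08 and 0.369 FPKM in floxed and wild type cells at 48 h. The ratios of 2.39 and 8.33 again stand on wild type levels under 1 FPKM. The gene lies on chromosome 15 from 101254269 to 101274795, a GENCODE span of 20527 bases and the only member span above 10 kb. Its 8 exons are those of the chosen transcript. The RefSeq start used for its promoter lies well inside the span.

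Klf2 and Klf6 encode Krüppel-like zinc finger factors, the first known for holding T cells and endothelium quiescent. Klf2 stood at 4.60 FPKM in floxed and 2.20 in wild type cells at 24 h, and at 9.75 and 1.56 FPKM in floxed and wild type cells at 48 h. These are ratios of 2.09 and 6.26. Klf6 stood at 14.4 FPKM in floxed and 7.61 in wild type cells at 24 h, and at 25.7 and 6.88 FPKM in floxed and wild type cells at 48 h. Its ratios were 1.89 and 3.74, and both genes were called higher at both times. Klf2 lies on chromosome 8 from 72319033 to 72321656 and Klf6 on chromosome 13 from 5861482 to 5870394.

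**Figure D3:**
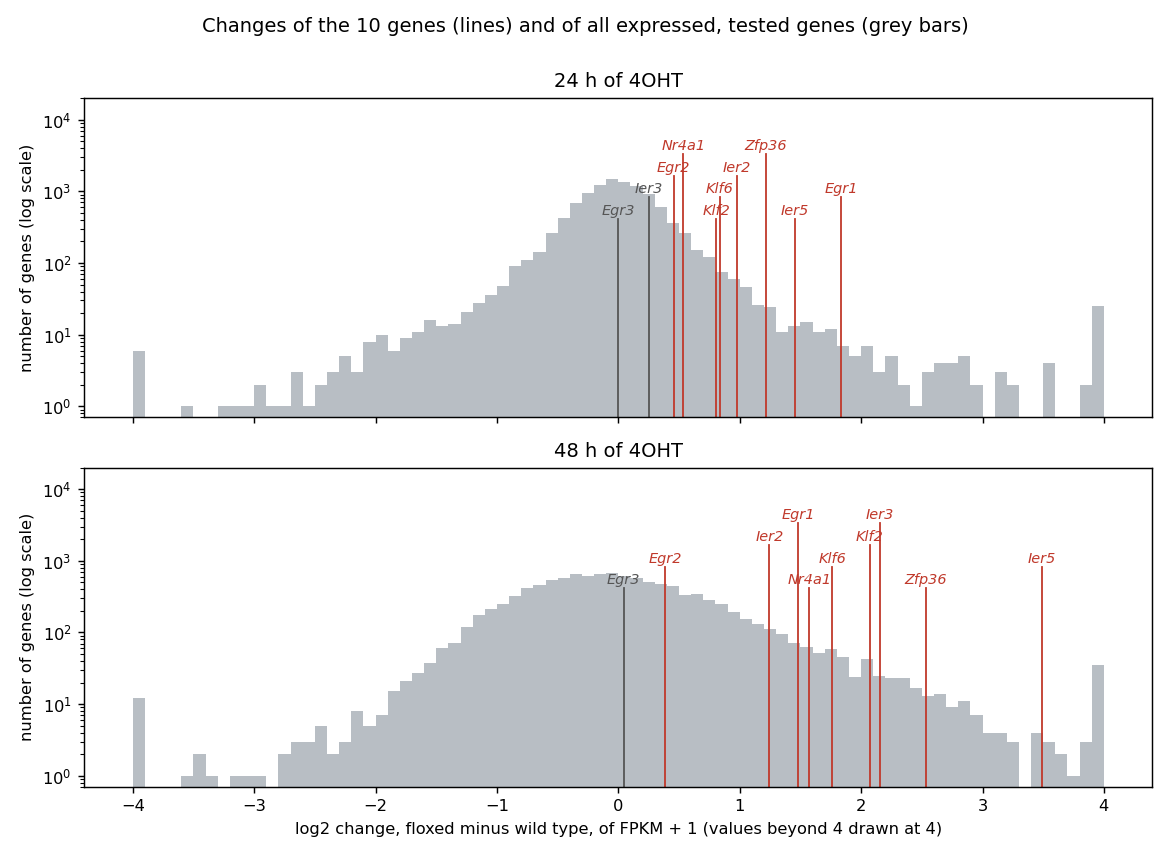
Log2 change of FPKM + 1, floxed minus wild type (horizontal axis), of the 10 genes as lines (red where called, grey where not; line height only spaces the names) over the distribution of all expressed, tested genes (grey bars, gene number on a log scale) at 24 h and 48 h. Ier5 lies farthest right of the 10 at 48 h at 3.49 and Egr1 at 24 h at 1.84, while Egr3 lies near 0 at both times.

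The order of the genes by level differed between the lines in places. At 24 h Egr1 was the seventh of the 10 in floxed and the ninth in wild type cells, and Ier5 was the third in floxed and the fifth in wild type cells. Ier2 came first, Zfp36 the second and Egr3 last in both. With no spread available, it cannot be said which neighbours in this order differ beyond replicate error.

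Most members stood higher at 48 h than at 24 h in the floxed line and lower in the wild type line. In floxed cells 8 of the 10 were higher at 48 h than at 24 h, with Ier5 at 4.12 times, Ier3 at 3.16 times, Nr4a1 at 2.69 times and Zfp36 at 2.30 times its 24 h level. Egr1 and Egr2 stood at 0.656 and 0.684 times theirs. Egr3, counted among the 8, stood at only 0.00984 FPKM at 24 h and 0.0918 FPKM at 48 h in floxed cells. The share of all expressed genes that stood higher at 48 h in floxed cells was not computed. In wild type cells 9 of the 10 were lower at 48 h than at 24 h, from 0.615 times for Egr1 to 0.989 times for Ier2 among the 8 genes that reached 1 FPKM, where 55.2% of 11158 expressed genes were lower at 48 h. Signed log2 changes, floxed minus wild type, were larger at 48 h than at 24 h for 8 of the 10, against 44.5% of expressed genes. A gene whose decrease deepened counts as not larger. The 44.5% is therefore not the share of genes whose difference between the lines grew. These are values without a test, and it is unknown if the 24 h and 48 h libraries were scaled in 1 run.

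Of 20 genes of the same families, 12 of them at 1 FPKM or more and 13 tested, 5 were called higher and 1 lower at 24 h, and 6 higher and 1 lower at 48 h. Of the 13 tested, 46.2% were called in either direction at 24 h and 53.8% at 48 h, against 28.1% and 56.2% of all tested genes, so the 48 h share was near the background. Klf4, a factor of monocyte differentiation, stood at 11.98 FPKM in floxed and 4.56 in wild type cells at 24 h, and at 12.4 and 3.09 FPKM in floxed and wild type cells at 48 h. Klf5 was 2.29-fold higher at 24 h, and 2.57-fold at 48 h. Nr4a2, a sister of Nr4a1, stood at 3.55 FPKM in floxed and 0.892 in wild type cells at 24 h, and at 2.49 and 1.06 FPKM in floxed and wild type cells at 48 h. Zfp36l1, another AU-rich element binder, was 1.38-fold higher at 24 h, and 3.24-fold at 48 h. The lower gene at both times was Klf9, named after its values were seen, at 6.10 FPKM in floxed and 7.89 in wild type cells at 24 h, and at 3.92 and 8.30 FPKM in floxed and wild type cells at 48 h. Klf9 shares its locus entry with another gene and is uncertain.

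Other immediate early genes outside these families were called higher in 13 of 26 cases at 24 h and in 17 at 48 h. They were called lower in 1 and 0 cases, and 22 of them reached 1 FPKM and were tested. Some of the 22, Plk2 included, reached 1 FPKM in floxed cells only, so their place there already requires a difference. Over all tested genes 13.7% were called higher at 24 h and 26.8% at 48 h. The median log2 change was 0.32 at 24 h and 1.13 at 48 h. Tob1, an antiproliferative protein, stood at 24.9 FPKM in floxed and 7.99 in wild type cells at 24 h, and at 70.2 and 9.02 FPKM in floxed and wild type cells at 48 h. Gadd45b, a stress-response gene, was 2.21-fold and 3.47-fold higher at the 2 times. Dusp1, a phosphatase that switches off MAP kinases, stood at 2.71 FPKM in floxed and 0.833 in wild type cells at 24 h, and at 5.93 and 1.07 FPKM in floxed and wild type cells at 48 h. The polo-like kinase gene Plk2 stood at 11.7 FPKM in floxed and 0.345 in wild type cells at 48 h. Atf3, a stress-induced transcription factor, was the gene called lower at 24 h, at 1.19 FPKM in floxed and 1.77 in wild type cells, and was called higher at 48 h, at 8.70 FPKM in floxed and 0.708 in wild type cells.

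Factors upstream of immediate early genes, with the EGR co-repressors, went both ways. Of 24, all at 1 FPKM or more, 2 were called higher and 3 lower at 24 h, and 5 higher and 4 lower at 48 h. That is 20.8% called at 24 h, where 27.6% of expressed tested genes were called in either direction, and 37.5% at 48 h, where 56.8% were. Srf stood at 44.5 FPKM in floxed and 36.9 in wild type cells at 24 h and at 44.8 and 37.7 FPKM in floxed and wild type cells at 48 h, with no call. Its ETS-family partners Elk3 and Elk1 were lower, Elk3 at 5.18 FPKM in floxed and 9.11 in wild type cells at 24 h, and 4.60 and 9.53 FPKM in floxed and wild type cells at 48 h. Elk1 was 1.65-fold lower at 24 h, and 1.54-fold at 48 h. The third partner, Elk4, was 1.64-fold higher at 24 h, and 1.89-fold at 48 h (named after its values were seen). Creb1, the cyclic AMP response factor, was 1.299-fold lower at 24 h, and 2.21-fold at 48 h. At 48 h Mapk3, which encodes an ERK kinase, was 2.17-fold higher. Rps6ka3, a kinase downstream of ERK, was 1.55-fold higher at 24 h.

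Of 16 reported targets of the Zfp36 protein, with 10 at 1 FPKM or more, 6 were called higher and 1 lower at 24 h, and 9 higher and 1 lower at 48 h, with Ier3 counted here too. Not all of these 10 targets reached 1 FPKM in wild type cells, and a gene that passes through floxed cells alone has to differ. Over all tested genes 13.7% were called higher at 24 h and 26.8% at 48 h. Tnf, the tumour necrosis factor gene, stood at 12.8 FPKM in floxed and 2.98 in wild type cells at 24 h, and at 20.99 and 2.72 FPKM in floxed and wild type cells at 48 h. The chemokine gene Ccl4 stood at 28.4 FPKM in floxed and 2.11 in wild type cells at 48 h. Ccl2, another chemokine gene, was called lower at 24 h, at 1.096 FPKM in floxed and 5.07 in wild type cells, and higher at 48 h, at 3.03 FPKM in floxed and 1.34 in wild type cells. Of 5 Klf2 targets known from T cells and endothelium, 3 reached 1 FPKM, with 2 called higher and 1 lower at 24 h, and 2 higher and 0 lower at 48 h. Itgb7, an integrin, was 2.74-fold higher at 24 h and stood at 5.68 FPKM in floxed and 0.849 in wild type cells at 48 h. Thbd, thrombomodulin, was 1.297-fold and 1.54-fold higher.

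**Figure D4:**
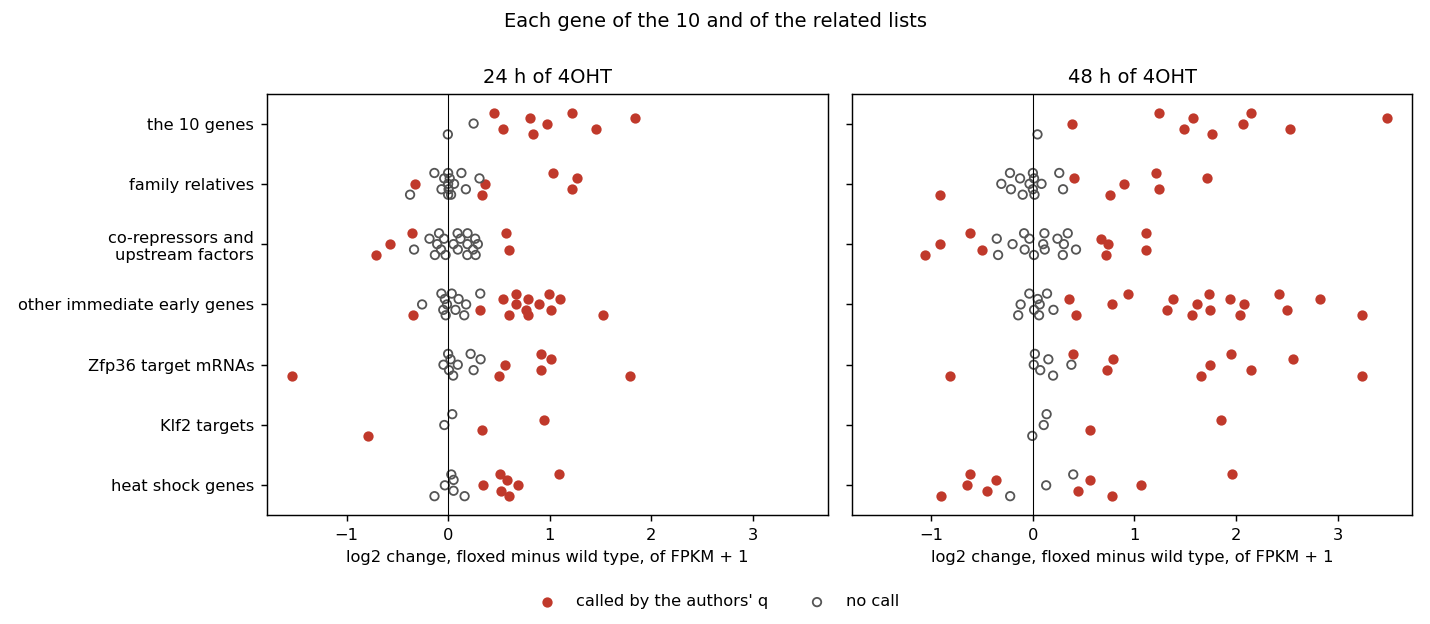
Log2 change of FPKM + 1, floxed minus wild type, of each gene (1 point) of the 10 and of the 6 related lists at 24 h (left) and 48 h (right); filled red points were called by the authors' q and open points were not. The 10 genes and the other immediate early genes lie mostly right of 0 at both times, while the upstream factors and, at 48 h, the heat shock genes lie on both sides.

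Heat shock genes, like immediate early genes, respond to the handling of cells. Of 13, 7 were called higher, 0 lower and 6 not called at 24 h, and 5 were called higher and 5 lower at 48 h. At 24 h 4 of them had a q under 0.01 in the authors' deposited table. Of the 12 tested, 58.3% were called in either direction at 24 h and 83.3% at 48 h, against 28.1% and 56.2% of all tested genes. Hspa1b stood at 1.62 FPKM in floxed and 0.225 in wild type cells at 24 h, and at 3.92 and 0.265 FPKM in floxed and wild type cells at 48 h, with reads that may be split with its near-identical copy Hspa1a. Dnajb4 was 1.59-fold and 1.81-fold higher. Hsph1 was 1.63-fold higher at 24 h and 1.29-fold lower at 48 h, and Hspd1 was 1.88-fold lower at 48 h. The part of cell handling in the member differences was not tested.

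Some markers of mature myeloid cells were also called between the lines. Over all tested genes 13.7% were called higher, 14.4% lower and 28.1% in either direction at 24 h. At 48 h these shares were 26.8%, 29.4% and 56.2%. Of the 9 monocyte and macrophage markers tested, 33.3% were called at 24 h, near the share of all genes, and 100% at 48 h. Of 10 monocyte and macrophage markers, 0 were called higher and 3 lower at 24 h, with a summed level of 3197 FPKM in floxed and 3218 in wild type cells. At 48 h 8 were called higher and 1 lower, at 6466 FPKM in floxed and 2581 in wild type cells. Of 8 neutrophil markers, 4 were called higher and 2 lower at 24 h, at 7476 FPKM in floxed and 8416 in wild type cells, and 8 higher and 0 lower at 48 h, at 23993 and 6375 FPKM in floxed and wild type cells. Of 4 eosinophil markers, 3 were called higher at both times, at a summed 118 FPKM in floxed and 4.43 in wild type cells at 24 h, and 87.0 and 4.14 FPKM in floxed and wild type cells at 48 h. Of 3 mast cell or basophil markers 1 was called higher at both times, and Fcer1a was listed at 0 in all groups. Megakaryocyte markers summed to 12.1 FPKM in floxed and 1.74 in wild type cells at 48 h, with 2 of 3 called higher and 1 lower. Of 10 markers of myeloid progenitors, 2 were called higher and 2 lower at 24 h, and 5 higher and 4 lower at 48 h, when they summed to 5158 FPKM in floxed and 9353 in wild type cells. Of 2 endothelial markers, 1 was called lower at both times. The part of these cell states in the member differences was not tested.

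The genes with the profile most like the members' were sought among the other expressed genes called at 48 h. Likeness was the root mean square distance, over the 4 groups, between log2(FPKM + 1) values with each gene's mean removed and the median profile of the 10. The nearest were Ccdc85a at a distance of 0.041, Bambi-ps1 at 0.041, Ifi30 at 0.043, Phlda3 at 0.048 and Serpinb8 at 0.057. Ifi30, a lysosomal thiol reductase of antigen-presenting cells, stood at 89.3 FPKM in floxed and 50.6 in wild type cells at 24 h, and at 143 and 42.3 FPKM in floxed and wild type cells at 48 h. Phlda3, a p53 target that restrains AKT signalling, was 1.97-fold higher at 24 h, and 4.69-fold at 48 h. With 4 values a gene, such a match is a description of shape.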

How the data were processed

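Poly(A) RNA of 8 libraries in 4 groups was measured. The submitters' processing notes name Cuffdiff, Cufflinks 2.1, Bowtie2 and the mm10 build without saying how each was used. The authors deposited, per the file headers, an FPKM for every gene in each group (duplicates combined), a q-value for each time and a fold (floxed over wild type). The last column repeats the 24 h name and was read as the 48 h fold, since it equals the 48 h FPKM ratio within 0.1% for 14797 of 14800 genes above 0. Date-like names took out 27 genes. Depth is not given. Low values put the worth of a fragment in floxed over wild type cells at 0.834 at 24 h and 1.07 at 48 h, on an untested assumption.

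With no library values, the authors' q under 0.05 was the call, no test of time or of its interaction was possible, and p-values rest on the authors' 2 libraries per group. Genes with q of 1 were taken as not tested. Log2 changes were computed after adding 1 to each FPKM, so those of low genes come out too small. Symbols were matched to GENCODE M21 (coding genes, same assembly as mm10) and RefSeq. The longest principal transcript gave exons and UTRs. Scripts used Python 3.11.15, numpy 2.4.6 and pandas 2.3.3 and were tested on simulated data. Named beside the members were up to 3 called genes per list and time with the largest change, plus the 5 nearest profiles, and 3 list genes are not reported here by name. Members, lists and rules were chosen with earlier results of these data known. Alternatives were another q threshold, other pseudocounts, filters and scalings.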

Additional observations from a re-analysis of the deposited data

Results flagged for a closer look

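Genes of the related lists called in opposite directions at the 2 times are given here, and in each case the difference between the times was not tested. Atf3 was called lower at 24 h, at 1.19 FPKM in floxed and 1.77 in wild type cells, and higher at 48 h, at 8.70 and 0.708 FPKM in floxed and wild type cells, so that its log2 change was 2.85 larger at 48 h. Ccl2 was called lower at 24 h and higher at 48 h, with a log2 change 2.32 larger at 48 h. Hsph1 was called higher at 24 h, at 66.3 FPKM in floxed and 40.6 in wild type cells, and lower at 48 h, at 45.4 FPKM in floxed and 58.5 in wild type cells, and its log2 change moved by -1.05. None of the 10 members was called in opposite directions.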

How the results depend on the processing

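No paired analysis was possible because the table holds 1 combined value per group, and leaving out a replicate was not run for the same reason. Among the 8 members of at least 1 FPKM, 7 were called at 24 h, against 3 when FPKM + 1 also had to differ by 2-fold or more, and the 48 h count of 8 stayed at 8. The counts at q under 0.01 were 7 and 8. The median log2 change of the 8 was 0.91 at 24 h and 1.92 at 48 h. It was 1.07 and 2.59 with a pseudocount of 0.1, 0.64 and 1.27 when 5 was added instead, 0.93 and 1.83 with groups rescaled to the same sum, 0.92 and 2.02 with median-of-ratios factors, and 0.92 and 1.95 under quantile normalization. With no filter, over all 10, it was 0.82 and 1.67, and among members of at least 5 FPKM 0.91 and 2.11. Egr1 and Nr4a1 passed the 1 FPKM filter, and Klf2 the 5 FPKM filter, only through floxed cells. The counts and medians of filtered members are therefore description only. None of the 100 recomputed member changes reversed a called direction, and the 3 scalings moved the median of all expressed genes by at most 0.09. Another pseudocount cannot reverse a sign and the scalings were small, so the lack of reversals was largely fixed in advance. At q under 0.01, a setting chosen after the data were seen, family relatives called at 24 h were 3 higher and 0 lower, against 5 and 1. Heat shock genes were then 4 higher at 24 h, against 7, and 3 higher and 3 lower at 48 h, against 5 and 5. Other immediate early genes had 0 lower at 24 h, against 1, and Klf2 targets 1 higher, against 2. Depth limits the low members, Egr3 most of all, and the ratios of Egr1, Egr2 and Nr4a1 stand on wild type levels under 1 FPKM.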

Other observations

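The members are short genes. Of the 10, 9 span under 10 kb and 7 have 1 or 2 exons, where 24.7% and 6.53% of 9933 expressed coding genes do. Of 2432 expressed, tested genes under 10 kb, 15.5% were called higher in floxed cells at 24 h and 13.4% lower. Of 7450 longer genes 12.6% were called higher and 15.2% lower. At 48 h 32.8% of the shorter and 23.5% of the longer genes were called higher, with median log2 changes of 0.06 and -0.12. Called lower at 48 h were 23.8% of the shorter and 34.5% of the longer genes. Genes of 1 or 2 exons were called higher in 36.3% of 647 cases at 48 h and lower in 24.1%. At 24 h they were called higher in 19.1% of 639 cases and lower in 16.7%.

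Of 2758 expressed, tested genes with the heptamer TATTTAT in the 3′ UTR, 24.3% were called higher in floxed cells at 48 h and 32.5% lower, and of 7100 genes without it 26.4% were called higher and 31.5% lower. At 24 h the order of the shares was the other way, with 14.6% of 2755 genes with the heptamer called higher and 13.5% lower, and 12.8% of 7064 genes without it called higher and 15.2% lower.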
